A study of Mus musculus with 13 samples.

Results

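Chromatin accessibility was compared between haematopoietic stem cells (HSCs) of platelet-restricted and of multilineage recipients, with changed regions placed along the chromosomes. The 3 PLT-HSC and 4 MUL-HSC libraries were taken by their column names, 7 of the 13 libraries of the series, and no other library entered any fit. The assay was Omni-ATAC-seq on bulk samples, where transposase cuts open DNA and leaves sequencing adapters, so that counts in a region rise with its openness. In both groups the cells descended from single Vwf+ HSCs transplanted into mice. The groups differ in what the recipient restored over 16 weeks, platelets (P-restricted, PLT-HSC) or several blood lineages (MUL-HSC). All libraries were made from 500 donor-derived bone marrow cells sorted on the same phenotype, LSK Flt3- CD150+ CD48- CD45.2+ Gata1-, of strain C57BL/6. HSCs descended from the same transplanted cell share their founder, and whether replicates came from separate recipients is not stated. The p-values set the group difference against the spread between these libraries. That spread may be technical and may not stand for variation between recipients.

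HSCs maintain themselves and give rise to all blood lineages. Single-cell transplantation has shown that some HSCs replenish platelets almost alone, and Vwf, the gene of von Willebrand factor, marks HSCs with that bias. An accessible region is commonly a promoter or an enhancer. Distal regions usually differ more between related cell types than promoters do.

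Region positions are in mm9, as the authors' table gives them, with no statement on whether a start is counted from 0 or from 1. The gene table used here is of another build, GRCm38. Loci are therefore given by position without gene names, and the labelled cell type was not checked against marker genes.

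Library totals ran from 1307222 to 2831520 counts in MUL-HSC (n = 4) and from 2378024 to 3307889 in PLT-HSC (n = 3), with means of 2013840 and 2995460. In log2 CPM (counts scaled to a common library size) the first principal component held 38.4% of the variance and put MUL-HSC replicates 1, 2 and 4 at -78.0, -86.7 and -31.0, MUL-HSC replicate 3 at 6.79, and the PLT-HSC libraries at 35.6 to 79.8. MUL-HSC replicate 3 had a mean Spearman rho of 0.856 with its own group and 0.862 with PLT-HSC. For the other MUL-HSC libraries these values were 0.857 to 0.877 and 0.798 to 0.840.

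Accessibility was higher in PLT-HSC than in MUL-HSC at 610 regions and lower at 872, 1482 of 53120 tested or 2.79% (1.15% higher, 1.64% lower; edgeR quasi-likelihood test, Benjamini-Hochberg adjusted p under 0.05). Median log2 fold changes were 1.49 and -1.52. Changes of at least 3 on the log2 scale were called at 64 lower and 28 higher regions, and of at least 4 at 22 and 7. A region near 0 in 1 group passed the filter on low counts only through the other group, and regions with few MUL-HSC counts and many PLT-HSC counts were among those left out, so these numbers do not compare the directions. Without the filter 1107 regions were higher and 1253 lower (46.9% higher). Values of the groups did not overlap in 1423 called regions (96.0%) and in 13.3% of all tested regions. The libraries are bulk samples, in which fewer cells with an open region and a less open region in every cell cannot be told apart.

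Library totals were larger in PLT-HSC on average, and the number of calls depended on each single library. It was 178 (78 higher, 100 lower) once the library total entered as a covariate and 307 (116 and 191) without the libraries under 2000000 counts, MUL-HSC replicates 1 and 2. Leaving out MUL-HSC replicate 1, 2, 3 or 4 gave 695, 743, 2260 or 576 calls. Leaving out PLT-HSC replicate 1, 2 or 3 gave 536, 827 or 2278, with 51.5%, 31.3% and 46.8% of them higher, beside 41.2% in the fit of all 7. In none of these 9 fits, nor in the planned ones, did a region called here turn its direction.

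**Figure D1:**
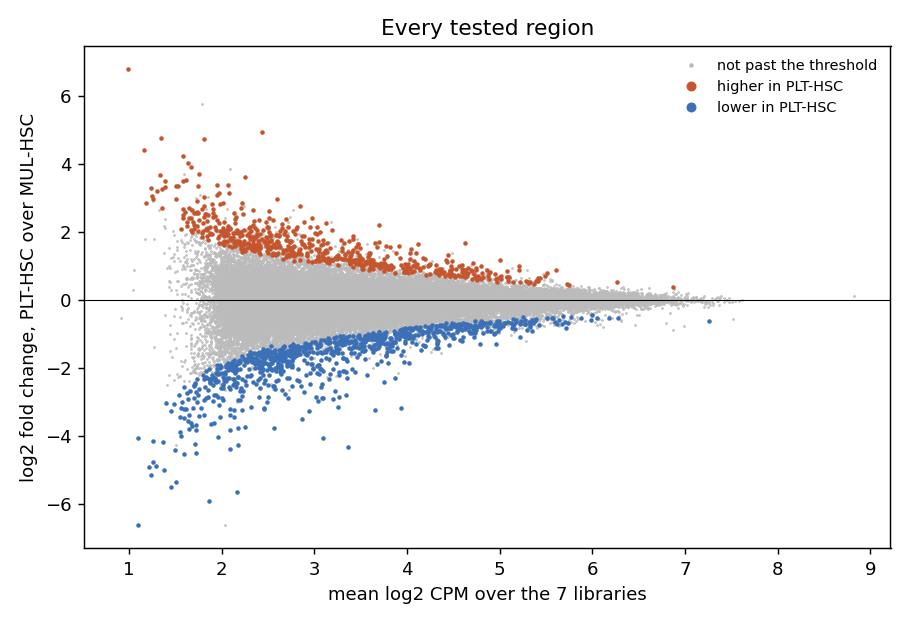
Each point is a tested region, placed by its mean log2 CPM over the 7 libraries (x axis) and its log2 fold change of PLT-HSC over MUL-HSC (y axis). Regions higher in PLT-HSC (610, orange) and lower (872, blue) occur at all levels, with a median of 8.25 and 9.07 CPM beside 9.47 for all tested regions. Fold changes spread most widely at low levels.

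The losses of smallest p are given first. At chr9:14822372-14823128, a region of 756 bp, the 4 MUL-HSC libraries had 26.3, 21.4, 20.2 and 29.7 CPM and the PLT-HSC libraries 0.298, 1.28 and 2.71. Every MUL-HSC library was thus above every PLT-HSC library, in a region chosen for a small p. The log2 fold change was -4.05 ± 0.37 (SE; adjusted p = 2.69e-06, edgeR quasi-likelihood test). At chr1:134700341-134701183 (842 bp) MUL-HSC had 35.1, 16.8, 33.5 and 35.3 CPM and PLT-HSC 3.27, 5.13 and 1.81, a log2 fold change of -3.23 ± 0.31. MUL-HSC replicate 2 lay below the rest of its group there but still above PLT-HSC.

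On chromosome 8, chr8:127206097-127206665 (568 bp) held 78 MUL-HSC counts and 1 PLT-HSC count in all, a scaled ratio of 87.3 (95% exact counting interval 15.2 to 3491). Its MUL-HSC values were 11.7, 10.7, 5.50 and 11.2 CPM. Another region of that chromosome, chr8:124559257-124559832, held 105 and 2 counts. Counting intervals use the summed counts of each group, so they cover counting error alone and not variation between libraries. Reads also carry no molecular identifiers.

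Lower as well were chr17:13852464-13852981 (128 counts in MUL-HSC and 10 in PLT-HSC, log2 fold change -3.74 ± 0.45) and chr4:139245398-139246185. The latter kept a level in PLT-HSC of 2.68, 7.69 and 6.94 CPM, against 21.6, 31.4, 33.0 and 24.8 in MUL-HSC, a log2 fold change of -2.29 ± 0.28. With the chr18:12090062-12090577, chr6:113810669-113811399, chr12:116699023-116699739 and chr12:116383510-116384038 regions, these are the 10 of smallest p among the losses. They were 515 to 842 bp wide and had 1 to 50 counts over the PLT-HSC libraries.

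Most of the 10 gains of smallest p had few MUL-HSC counts. Regions near 0 in MUL-HSC passed the filter on low counts only through PLT-HSC and were then ranked by p. Few MUL-HSC counts and large ratios were thus favoured by this choice. At chr6:115830680-115831358 (678 bp) the MUL-HSC libraries had 0, 0.765, 0 and 1.05 CPM and the PLT-HSC libraries 9.82, 17.9 and 15.7. The 4 MUL-HSC and 127 PLT-HSC counts give a ratio of 28.4 (95% counting interval 10.8 to 106), and the fit gave 4.73 ± 0.52 in log2 fold change (SE; edgeR quasi-likelihood adjusted p = 2.96e-05). At chr17:50300602-50301245 (643 bp) MUL-HSC had 0, 0, 1.37 and 0.350 CPM and PLT-HSC 11.9, 7.69 and 10.6. That ratio, from 4 and 93 counts, was 20.8 (7.85 to 77.9).

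At chr11:103084790-103085161 (371 bp) 6 and 93 counts gave a ratio of 13.9 (6.13 to 38.7), and at chr3:51527768-51528081 (313 bp) 2 and 71 counts gave 31.7 (8.47 to 267). Chromosome 3 held a further 2 of the 10 gains, chr3:158222413-158222982 (log2 fold change 3.36 ± 0.48) and chr3:100764778-100765709. At chr6:50304840-50305387 MUL-HSC had 1.17, 0.765, 1.83 and 1.05 CPM and PLT-HSC 7.74, 8.97 and 10.6 (log2 fold change 2.83 ± 0.42).

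The highest MUL-HSC level among the 10 gains was at chr7:4449771-4450267 (496 bp), with 6.43, 6.89, 7.79 and 7.70 CPM in MUL-HSC and 24.4, 22.2 and 25.04 in PLT-HSC. The spread within each group was small there, with 1.71 ± 0.23 as log2 fold change (SE; edgeR quasi-likelihood adjusted p = 0.000189). The other gains among the 10, chr7:130251625-130252345 and chr16:41914285-41914919, had 9 and 23 MUL-HSC counts. In 5 of the 10 gains MUL-HSC replicate 3, the library nearest to PLT-HSC by correlation, held at least as many counts as the rest of its group together. All 20 regions of smallest p stayed past the threshold in each of the 14 to 18 further fits that tested them. They were chosen for a small p, so this was favoured by their choice.

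**Figure D2:**
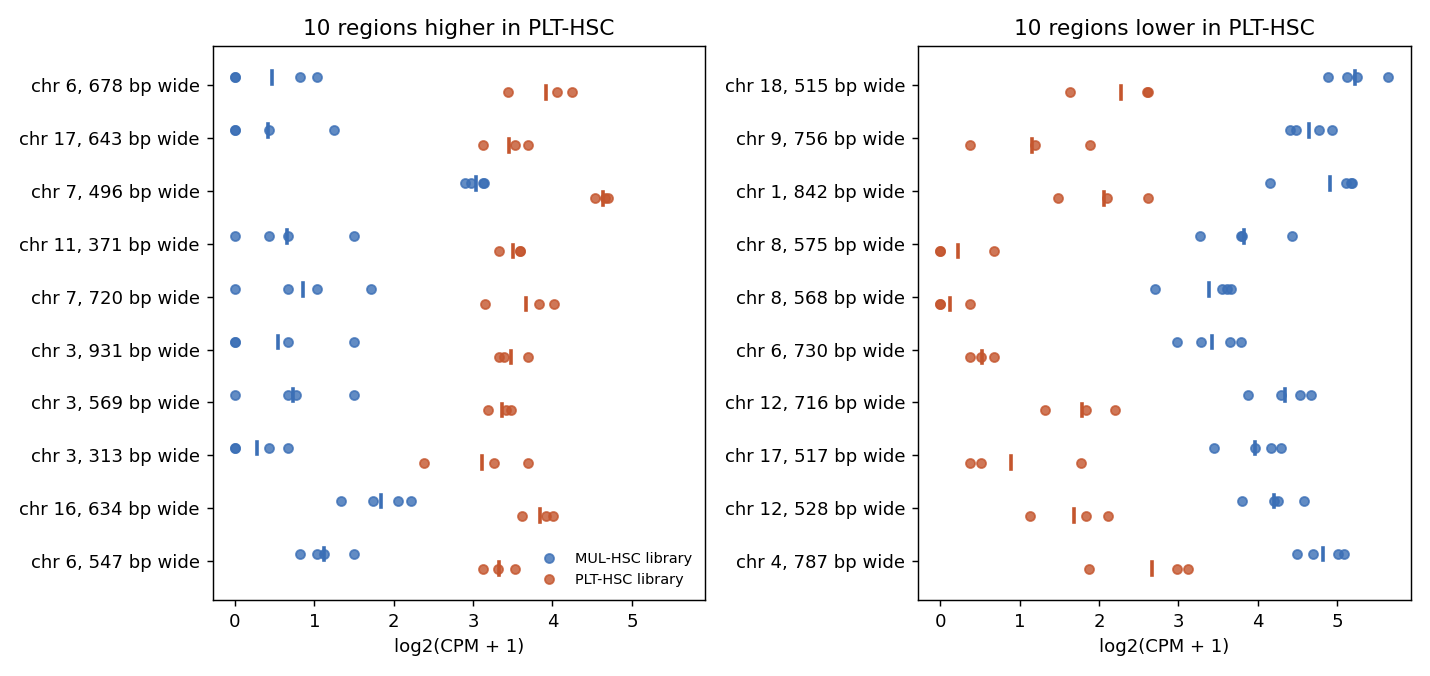
Accessibility as log2(CPM + 1) (x axis) of the 10 gains and the 10 losses of smallest p (rows, with chromosome and width). Points are libraries, 4 of MUL-HSC (blue) and 3 of PLT-HSC (orange), and bars are group means on this scale. The groups do not overlap in any row, which was favoured by the choice of rows for a small p. They did not overlap in 96.0% of called and 13.3% of all tested regions. Several MUL-HSC points of the left panel and PLT-HSC points of the right panel lie at 0.

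The share called differed with level. Split into 5 classes of equal size by mean log2 CPM, 4.29% were called in the weakest (median 4.30 CPM), 2.65%, 2.73% and 2.83% in the next 3, and 1.44% in the strongest (median 39.8 CPM). Losses outnumbered gains in each class, by 251 to 205 in the weakest and by 98 to 55 in the strongest. As over all regions, these numbers do not compare the directions, because of the filter on low counts. The median size of a called log2 fold change was 2.16 in the weakest class and 0.68 in the strongest, where the median SE was 0.44 and 0.14, so that a change had to be larger to be called in a weak region. The called gain of highest mean CPM, chr19:23208503-23210876, had 85.4, 103, 113 and 115 CPM in MUL-HSC and 138, 137 and 132 in PLT-HSC, or 0.37 ± 0.10 in log2 fold change (edgeR quasi-likelihood adjusted p = 0.0412). It lost the threshold in 11 of 18 further fits.

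The strongest called loss, chr7:137977786-137978249, had 163, 224, 215 and 142 CPM in MUL-HSC and 130, 114 and 117 in PLT-HSC, or -0.61 ± 0.14 in log2 fold change. It lost the threshold in 11 of 18 further fits. Next in level came gains at chr19:10175227-10176828 (log2 fold change 0.52 ± 0.10) and chr18:9211588-9213724 (0.46 ± 0.12) and losses at chr1:104524603-104524997 (-0.54 ± 0.13) and chr8:118229683-118232351 (-0.51 ± 0.13). The chr19 gain lost the threshold in 1 further fit and the others in 13, 6 and 11, in the order named.

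Losses had a median width of 651 bp, gains of 727.5 bp and tested regions of 728 bp, and called regions spanned 199 to 2668 bp. The share called was 1.53% under 300 bp, 2.85% from 300 to under 500 bp, 3.40% from 500 to under 1000 bp and 1.79% from 1000 bp up, beside 2.79% over all. The split by direction differed between width classes. Of the called regions under 300 bp 4 were higher and 30 lower. Without the filter on low counts these were 79 and 178 (30.7% higher). With every library thinned to the smallest total they were 2 and 2. From 300 to under 500 bp these numbers were 88 and 204, from 500 to under 1000 bp 394 and 509, and from 1000 bp up 124 and 129.

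Most narrow regions did not enter this count, since 2229 of 34412 regions under 300 bp passed the filter on low counts, against 14107 of 14171 from 1000 bp up. Of the 30 narrow losses 1 stayed past the threshold when the library total was a covariate, 1 with the replicate number as a block, and 1 after thinning, which left fewer regions to test. From 300 bp up, the share of gains among calls no longer rose with each class with the replicate number as a block and without MUL-HSC replicate 1, MUL-HSC replicate 4 or PLT-HSC replicate 1, where the widest class had 30.6%, 38.5%, 38.2% and 55.1% gains.

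Narrow regions of high level stood apart. Of the 135 tested regions under 300 bp in the upper 2 classes of level, a set chosen after its values were seen and given no test, 123 had a fold change below 0 (91.1%), with a median log2 fold change of -0.49. For the 21113 wider regions of the same level this share was 47.6%. Their summed level was 3370, 4783, 3158 and 2536 CPM in MUL-HSC replicates 1 to 4 and 2287, 2917 and 2150 in PLT-HSC replicates 1 to 3. This order is the reverse of the library totals, apart from PLT-HSC replicates 1 and 3, whose totals of 3307889 and 3300454 are nearly equal. Their summed raw counts spanned 5762 to 7683 while totals spanned 1307222 to 3307889. Of the 135, 4 were called, all lower: 3 of 106 (2.83%) in class 4 of level and 1 of 29 (3.45%) in class 5, the strongest. Over all tested regions 2.79% were called, so the share called was not unusual.

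Over all listed regions those under 300 bp took 5.74%, 5.90%, 5.52% and 5.77% of counts in the MUL-HSC libraries and 5.37%, 5.39% and 5.31% in the PLT-HSC libraries. The groups did not overlap, yet the difference of -0.372 percentage points did not pass (exact permutation p = 0.0571, two-sided, 0.228 adjusted over 4 width classes). Regions of at least 1000 bp took 48.4% ± 0.696 (SD, n = 4) and 49.1% ± 0.986 (SD, n = 3), a difference of 0.676 points (exact permutation p = 0.314, adjusted 0.419). With 35 assignments the smallest p this design allows is 0.0286. A lone class at that p would not pass once adjusted over 4 width classes, so these adjusted p-values cannot decide whether the shares differ.

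The 3 widest called regions in each direction had log2 fold changes of 0.37 to 0.55 for gains and of -0.51 to -1.09 for losses. Beside the chr19, chr18 and chr8 regions above, chr1:77510852-77513143 (2291 bp) was higher at 32.2, 31.4, 41.2 and 36.7 CPM in MUL-HSC and 55.7, 55.1 and 47.1 in PLT-HSC, or 0.55 ± 0.13 in log2 fold change. It lost the threshold in 9 of 18 further fits. The regions chr6:145733286-145735438 (2152 bp, log2 fold change -1.09 ± 0.23) and chr12:15822007-15824094 (2087 bp, -0.59 ± 0.11) were lower. The call on the former was lost after thinning and without MUL-HSC replicate 4 or PLT-HSC replicate 1, and that on the latter under the covariate.

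The share called was higher where few other regions lay near, although called and tested regions had a similar median number of neighbours (4 for gains, 5 for losses and 5 for tested regions). With 0 or 1 other listed region within 25 kb of the midpoint 3.66% of regions were called, with 2 to 4 others 2.75%, with 5 to 9 others 2.71% and with 10 or more 2.18%. Median level was 9.28 to 9.77 CPM in these 4 classes, so it differed little between them. Their median width did differ, at 838, 783, 687 and 583 bp in the same order, and was not separated from the number of neighbours.

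**Figure D3:**
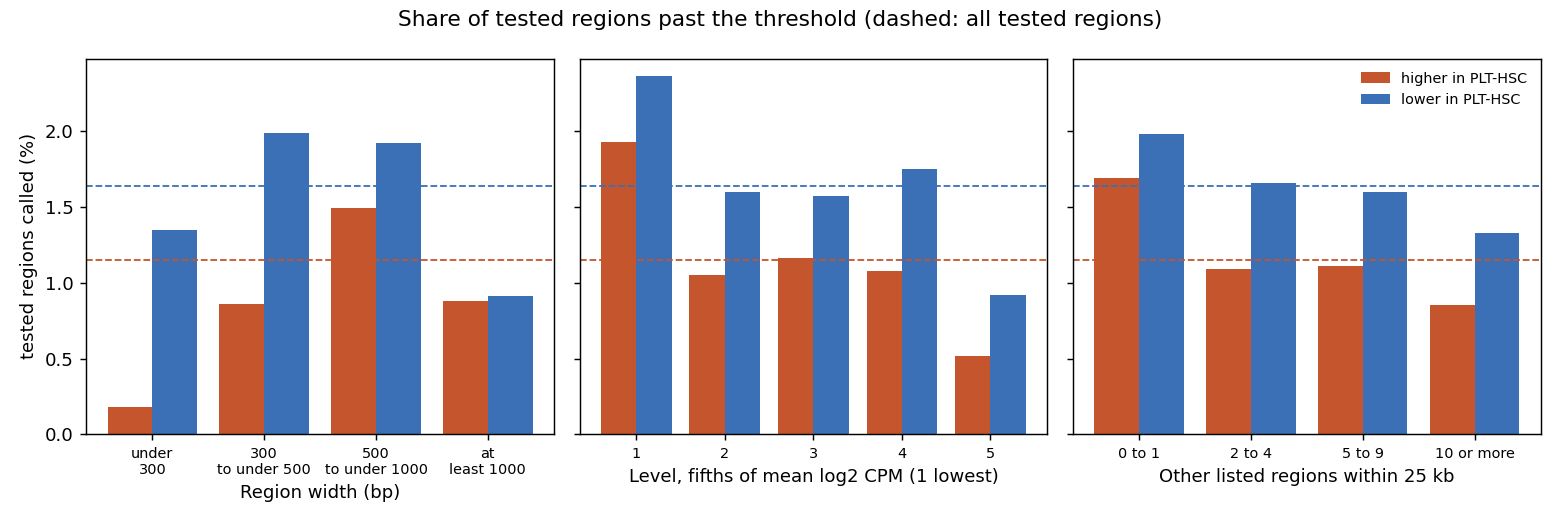
Percentage of tested regions called higher (orange) or lower (blue) in PLT-HSC by width, by class of mean log2 CPM (1 weakest, 5 strongest) and by the number of other listed regions within 25 kb, with dashed lines at 1.15% and 1.64% for all tested regions. Under 300 bp, where 2229 of 34412 listed regions were tested, 30 calls are losses and 4 gains, against 178 and 79 without the filter.

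The share called was 4.03% on chromosome 12, 1.28% on chromosome X and 2.21% to 3.44% on the other 18 chromosomes with tested regions. Chromosome 12 had 61 losses among 2135 tested regions, 2.86% beside 1.64% over all, with 25 gains (1.17%). Chromosome 3 was the one chromosome with more gains than losses, 45 and 31 of 2601. With PLT-HSC replicate 2 left out this turned to 20 and 26, and the numbers were equal with the replicate number as a block and without the libraries under 2000000 counts. Chromosome X had 4 gains and 10 losses among 1097 regions, and no chromosome Y region was tested. Chromosome 12 ranked first in its share of losses in the main fit and in 17 of the 19 further fits, and was in the second place without a filter and with the block.

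The share of all counts on a chromosome differed little, for chromosome 12 between 3.98% ± 0.0312 (SD, n = 4) in MUL-HSC and 3.92% ± 0.0406 (SD, n = 3) in PLT-HSC (exact permutation p = 0.114, adjusted 0.570 over 20 chromosomes). The smallest unadjusted p of a chromosome was 0.0857. An adjusted p under 0.05 would need at least 12 chromosomes at the smallest p.

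**Figure D4:**
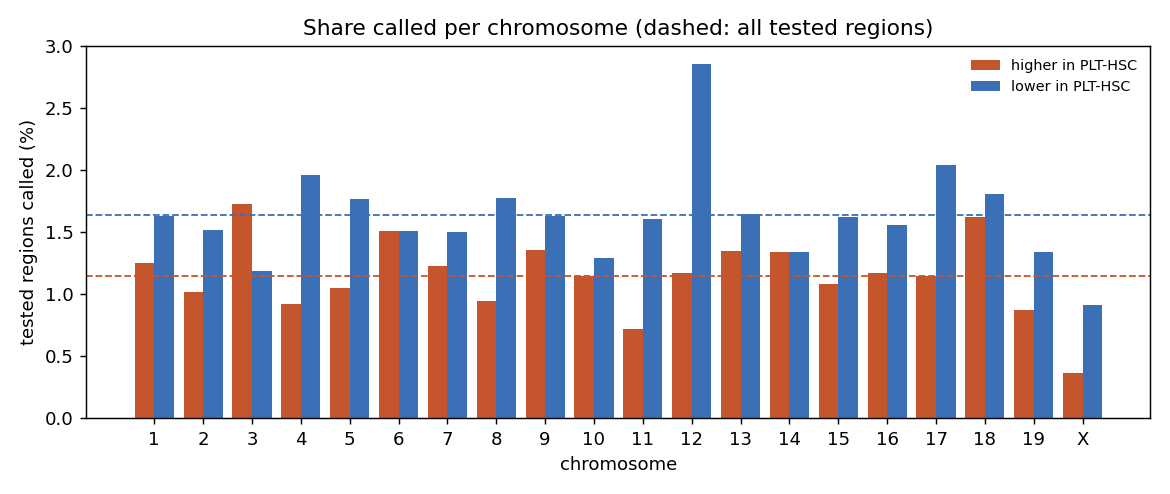
Percentage of tested regions called higher (orange) or lower (blue) in PLT-HSC on each chromosome, with dashed lines for all tested regions. Chromosome 12 has the highest share of losses, 2.86%, and chromosome 3 is where gains (1.73%) exceed losses (1.19%).

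To ask where changes run together along a chromosome, counts of all listed regions were summed in fixed windows of 1 Mb and fitted like the regions. Of 2441 windows 44 were higher and 41 lower in PLT-HSC, 3.48% in all (1.8% higher, 1.68% lower), with median log2 fold changes of 0.38 and -0.25. Windows with gains held a median of 28 listed regions and those with losses 59, beside 40 over all tested windows. Pooled over called windows, most regions not called themselves went the way of their window. Of 571 regions not called themselves in higher windows 410 (71.8%) had a fold change above 0, and of 1011 in lower windows 688 (68.1%) had one below 0. Over all tested regions 50.4% had a fold change above 0. The regions not called themselves contribute to the window's own count, so their majority was favoured by the choice of windows.

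The number of called windows was 22 when the library total was a covariate, 28 with the block and 48 without the libraries under 2000000 counts. Leaving out MUL-HSC replicate 1, 2, 3 or 4 gave 51, 56, 186 or 38 windows, and leaving out PLT-HSC replicate 1, 2 or 3 gave 15, 46 or 94.

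The window of smallest p among the losses ran from 115 to 116 Mb of chromosome 12. The MUL-HSC libraries had 160, 155, 157 and 156 CPM there and the PLT-HSC libraries 96.9, 96.1 and 81.4. The MUL-HSC values lay within 5 CPM of each other and well above PLT-HSC, at -0.78 ± 0.10 in log2 fold change (SE; edgeR quasi-likelihood adjusted p = 8.65e-05). This window passed in every fit of 1 Mb windows that was run. In the next window, from 116 to 117 Mb, MUL-HSC had 487, 488, 314 and 343 CPM and PLT-HSC 119, 168 and 156, or -1.45 ± 0.23 in log2 fold change (edgeR adjusted p = 0.0405). This call was lost without any 1 of 6 of the libraries and held without MUL-HSC replicate 3, with adjusted p from 0.0286 to 0.132. It held when the library total was a covariate (0.0303) and was lost with the block (0.0777). From 117 to 118 Mb the log2 fold change was -0.40 ± 0.08 (edgeR adjusted p = 0.0127). That call was lost without PLT-HSC replicate 1 (0.0899), under the covariate (0.224) and without the libraries under 2000000 counts (0.123). On either side the windows at 114 to 115 Mb (-0.02 ± 0.06) and 118 to 119 Mb (-0.20 ± 0.08) did not pass.

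From 114 to 118 Mb, 24 of 109 tested regions were lower (22.0%) and 0 higher, beside 1.83% lower in the rest of chromosome 12 and 1.59% on the other chromosomes. These bounds were set after the values were seen, so the count has no test. Of the 24, 14 lay between 116 and 117 Mb, where 21 regions were tested. The 24 losses were 306 to 997 bp wide and their log2 fold changes ran from -1.03 to -3.70. At chr12:116860887-116861685 (798 bp) 174 MUL-HSC and 22 PLT-HSC counts gave a log2 fold change of -3.15 ± 0.44, and at chr12:117190588-117190942 (354 bp) 68 and 7 counts gave -3.37 ± 0.59. Both were chosen after their values were seen. Without 1 library 16 to 27 regions of the segment were lower. Under the covariate 6 were, and without the libraries under 2000000 counts 9 were.

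As background, the distal part of mouse chromosome 12 carries the immunoglobulin heavy chain genes, which B cells rearrange. In the GRCm38 gene table their 216 entries lie in a run of 252, with 1894 genes before it and 46 after it on the chromosome. Whether the mm9 regions described here lie in that run was not determined.

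**Figure D5:**
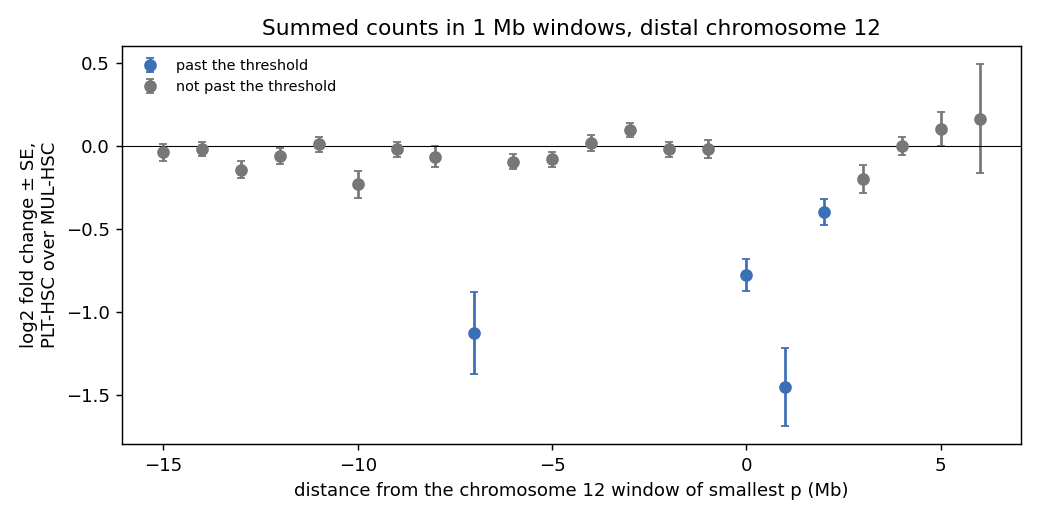
Log2 fold change of PLT-HSC over MUL-HSC (y axis, bars are standard errors) of summed counts in 1 Mb windows of distal chromosome 12, by distance in Mb from the window of smallest p (x axis). Blue windows passed the threshold: 3 neighbours at 0, 1 and 2 Mb, and 1 window 7 Mb towards the start, which holds 4 regions.

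The separate window on chromosome 12, from 108 to 109 Mb, held 4 listed regions, with 44.3, 70.6, 35.8 and 50.8 CPM in MUL-HSC and 21.9, 18.97 and 27.1 in PLT-HSC (log2 fold change -1.13 ± 0.25, edgeR adjusted p = 0.0132). This call was lost without MUL-HSC replicate 4 (0.053), PLT-HSC replicate 1 (0.0929) or PLT-HSC replicate 2 (0.0569), with the block (0.103), under the covariate (0.224) and without the libraries under 2000000 counts (0.0949). Both its called regions, chr12:108386582-108387187 (104 and 17 counts, log2 fold change -2.77 ± 0.40) and chr12:108397978-108398768 (56 and 4 counts, -3.82 ± 0.67), were losses. This window and both regions were chosen after their values were seen.

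The other windows of loss of smallest p held 58 to 90 listed regions and changed by -0.25 to -0.30. On chromosome 17 from 7 to 8 Mb, MUL-HSC had 864, 835, 751 and 800 CPM and PLT-HSC 633, 683 and 666, or -0.30 ± 0.05 in log2 fold change (edgeR adjusted p = 0.00201). There 3 of 35 tested regions were lower, 0 higher, and 27 of the 32 others had a fold change below 0. Over all tested regions 1.64% were lower. All windows named here were chosen for a small p on the summed counts of their regions. Losses and fold changes below 0 in them were favoured by that choice. On chromosome 2 from 173 to 174 Mb 5 of 34 regions were lower, led by chr2:173082824-173083639 (135 and 25 counts, log2 fold change -2.55 ± 0.34), and the window changed by -0.26 ± 0.05. On chromosome 18 from 12 to 13 Mb 4 of 39 were lower and the window changed by -0.25 ± 0.05, with 19 of the 35 other regions below 0. Among its called regions was chr18:12090062-12090577, which had 28.7, 49.0, 33.9 and 37.1 CPM in MUL-HSC and 5.06, 5.13 and 2.11 in PLT-HSC. The window at 63 to 64 Mb of chromosome 4 had 3 losses among 28 tested regions and changed by -0.28 ± 0.05. The chromosome 18 window was lost without PLT-HSC replicate 1 (edgeR adjusted p = 0.0675), and it and the chromosome 17 window were lost under the covariate (0.0527 and 0.0925). The chromosome 2, 18 and 4 windows were lost with the block (0.0672, 0.0639 and 0.071).

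Of the 5 windows of gain of smallest p, 4 held 2 to 14 listed regions and little signal in MUL-HSC. They were chosen for a small p, which favoured large fold changes. On chromosome 6 from 76 to 77 Mb, 6 listed regions held 1.17, 2.30, 5.89 and 4.98 CPM in MUL-HSC and 41.3, 70.9 and 35.7 in PLT-HSC, or 3.64 ± 0.38 in log2 fold change (SE; edgeR adjusted p = 1.51e-05). A region of 1033 bp, chr6:76337178-76338211, gave 341 of the 425 PLT-HSC counts and 10 of the 32 MUL-HSC counts. All 10 were in MUL-HSC replicate 4.

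On chromosome 16 from 60 to 61 Mb PLT-HSC had 26.4, 23.1 and 15.3 CPM and MUL-HSC 2.91, 2.30, 6.34 and 4.27, a log2 fold change of 2.36 ± 0.38. Of its 6 regions the one tested, chr16:60947335-60948095, differed by 0.10 ± 0.44 in log2 fold change. The 5 others had too few counts for the filter. Of these, chr16:60605737-60606451 held 1 count over MUL-HSC and 65 over PLT-HSC, and chr16:60604962-60605237, 500 bp before it, held 0 and 31. They did not enter the count of called regions.

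The window from 41 to 42 Mb of chromosome 16 had 6.41, 9.97, 22.6 and 11.4 CPM in MUL-HSC and 48.3, 54.9 and 41.8 in PLT-HSC (log2 fold change 1.89 ± 0.30), with 2 called gains. Under the covariate this window missed the threshold (edgeR adjusted p = 0.0564). On chromosome 10 from 46 to 47 Mb, 2 regions held 4 MUL-HSC counts, all of MUL-HSC replicate 3, and 85 PLT-HSC counts.

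A denser locus of gain ran from 15 to 16 Mb of chromosome 1, with 93.8, 108, 120 and 106 CPM in MUL-HSC and 170, 203 and 151 in PLT-HSC (log2 fold change 0.70 ± 0.11, edgeR adjusted p = 0.00154). Of its 9 tested regions 4 were higher, beside 1.15% of all tested regions. The window was chosen for a small p on the same counts, which favoured gains in it. At chr1:15276289-15277667 (1378 bp) counts were 0, 3, 14 and 10 in MUL-HSC and 73, 70 and 58 in PLT-HSC, or 2.77 ± 0.44 in log2 fold change. At chr1:15668935-15669490 they were 5, 1, 19 and 15 against 60, 64 and 48. In both regions MUL-HSC replicate 3 had the highest count of its group.

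On the scale of kilobases called regions mostly stood alone. Chained over gaps of up to 50 kb, 1209 of 1331 chains (90.8%) held 1 called region and 4 held 4 or more. The longest chain by number, chr12:116357715-116481262, held 5 losses and 0 gains, and all 7 regions tested in it had a fold change below 0. The other 3 mixed directions: chr12:86729679-86778876 had 3 gains and 1 loss among 5 tested regions, chr4:138731284-138815290 had 3 and 1 among 14, and chr11:113473276-113568005 had 2 and 2 among 12. Leading regions were chr12:86771158-86771977 (log2 fold change -1.26 ± 0.25), chr4:138814709-138815290 (2.07 ± 0.42) and chr11:113522225-113522907 (-2.10 ± 0.31). The chr4 region lost the threshold in 3 of 16 further fits, the chr12 region in 1 of 18 and the chr11 region in 0 of 18.

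Where adjacent tested regions at most 10 kb apart were both called, 33 of 38 pairs (86.8%) went the same way, 15 higher and 18 lower. Over all 23154 adjacent pairs at that distance 54.1% had fold changes of the same sign. Neighbouring regions share libraries and may share fragments. The correlation of fold changes across adjacent regions was weak, with r = 0.225 up to 1 kb (4439 pairs), 0.102 at 5 to 10 kb, 0.110 at 10 to 50 kb and 0.0710 over 200 kb. It is a description across regions, which are not replicates.

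The 5 pairs of opposite direction lay at 4 loci. On chromosome 9 a gain, a loss and a gain followed each other within 14 kb: chr9:61162979-61164121 held 54 MUL-HSC and 187 PLT-HSC counts (log2 fold change 1.65 ± 0.27), chr9:61169499-61170585 held 160 and 25 (-2.85 ± 0.36), and chr9:61175800-61176545 held 97 and 229 (1.07 ± 0.21). On chromosome 16, chr16:11006038-11006781 was lower (-0.80 ± 0.19) and chr16:11008236-11008746, 1455 bp further, was higher (1.74 ± 0.40). The others were chr12:86771158-86771977 beside chr12:86777083-86777821 (-1.26 and 1.85) and chr17:46268782-46269381 beside chr17:46275536-46276433 (-1.83 and 0.80). They are named because they are few, after their values were seen.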

How the data were processed

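The deposited table gives whole numbers per accessible region, taken here to be raw counts, for 115295 regions of 199 to 3907 bp. Per the submitters' processing notes the authors used Bowtie2, MACS2, Trim Galore, SAMtools, FastQC and Picard with mm9. Not given in the sources used here are versions, the counting tool, duplicate handling, the shift of read ends and whether libraries were pooled for peak calling. Regions called mainly in deep libraries would under-represent those of shallow ones.

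The filter filterByExpr kept 53120 regions (89.1% of counts of the 7 libraries). Libraries were scaled by TMM and fitted with edgeR 4.0.16 in R 4.3.3 (robust quasi-likelihood, two-sided). The coefficient of variation was 14.7%. CPM uses TMM-scaled totals, and log2 CPM a prior count of 2. Each SE was taken as log2 fold change over the square root of F. Windows assign regions by midpoint. Shares were tested by exact permutation over 35 assignments. Pairs of libraries within a group differed by more than sampling noise (chi-square per degree of freedom 1.45 to 2.14). The fits were tested on simulated data.

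Named are the 10 regions of smallest p per direction, the leading region of each chain of 4 or more, the 3 widest and 3 strongest per direction, and 5 windows per direction. Gene lists and cell type markers were not used, for want of mm9 gene positions. Members, rules and tests were chosen with earlier results of these data known. Alternatives were DESeq2 1.42.0, library totals, cyclic loess (limma 3.58.1), other filters, no robust estimation, a replicate block, thinning, no chromosomes X and Y, adjusted p under 0.01, other widths, windows and gaps, and leaving out each library. The library total as a covariate, leaving out libraries under 2000000 counts and leaving out regions under 300 bp were added after seeing the data.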

Additional observations from a re-analysis of the deposited data

Results flagged for a closer look

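In 4 of 66 groups of 4 MUL-HSC values 1 library lay apart from the rest of its group (Dixon's test at the 95% level, which marks about 1 in 20 by chance). MUL-HSC replicate 2 had 16.8 CPM at chr1:134700341-134701183, against 33.5 to 35.3 in the others. MUL-HSC replicate 3 had 5.50 CPM at chr8:127206097-127206665, against 10.7 to 11.7, and 1.81 CPM in the chromosome 10 window from 46 to 47 Mb, against 0. The last value is that of 1 library holding every count of its group. MUL-HSC replicate 1 had 5.32% of its counts on chromosome 17, against 5.26% in each of the others. Groups of 3 PLT-HSC libraries were not tested in this way.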

How the results depend on the processing

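Against 1482 called regions, DESeq2 called 1349, no filter gave 2360 (1107 higher, 1253 lower), a mean of at least 20 counts 674, thinning to the smallest total 654 and an adjusted p under 0.01 385. The library total as a covariate left 178 and dropping libraries under 2000000 counts 307, both chosen after seeing the data. Without 1 library there were 536 to 2278. The replicate block gave 441 regions (127 higher, 314 lower) and 28 windows. MUL-HSC replicate 4 had no PLT-HSC library of its number, so it formed a block alone and did not inform that group difference. Deviations from the group means correlated at r = -0.048, -0.049 and -0.136 for same-numbered libraries of the 2 groups. For the other pairs r ran from -0.071 to 0.133. Whether same-numbered libraries share an animal or a day is not stated, and these values cannot decide it. Clusters of at least 4 called regions numbered 0, 11 and 25 at gaps of 20, 100 and 200 kb, beside 4 at 50 kb, and 2 to 8 without 1 library. Called windows, 85 at 1 Mb, numbered 312 at 200 kb, 137 at 500 kb and 18 at 5 Mb, 22 with the library total as a covariate, 48 without libraries under 2000000 counts and 15 to 186 without 1 library. Some settings leave fewer regions or samples. The cause of these changes was not tested. Of 32 named regions 21 passed in every alternative that tested them, 11 lost the threshold in at least 1 and 0 reversed. Depth limits weak regions: the median SE of a log2 fold change was 0.44 in the weakest class of level and 0.14 in the strongest.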
